A study of Homo sapiens with 8 samples.

Results

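The 10 genes described here are MAP2 and a group of other genes whose products bind microtubules or their building blocks: MAPT, MAP4, MAP1A, MAP1B, MAP1S, MAP7, MAP7D1, STMN1 and TUBB3. All were found by symbol among the 61533 gene identifiers of the count tables. The group was chosen by the change of MAP2, selected on its measured rise under NEDD8i in both cell lines, so the values of MAP2 are given as a description, with no test. The other 9 were named for their function. Of the 10 genes, 9 passed the filter on low counts and TUBB3 did not, so 8 genes were tested.

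RNA was measured in 2 human squamous carcinoma lines, CAL27, derived from a tongue tumour, and A431, derived from an epidermoid tumour. The 4 groups were CAL27 with NEDD8i, CAL27 with DMSO, A431 with NEDD8i and A431 with DMSO, each treated for 16 h and each with 2 libraries. NEDD8i is an inhibitor of the NEDD8 pathway, named only by that term in the labels, and DMSO is the solvent control. The labels give no genetic change to either line and do not state that replicate libraries are separate cultures. The p-values thus reflect no more than the spread among these 8 libraries, which may be technical. A library held 49037868 to 62509817 counts, from a kit that reads the 3' ends of mRNA. Levels are CPM, the counts scaled to a common library size after TMM correction, and 3 counts equalled 0.048 to 0.0612 CPM before scaling.

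All 14 squamous epithelial markers examined had counts in every library. Their summed level was 25045 to 25828 CPM with NEDD8i and 17741 to 17810 CPM with DMSO in CAL27, and 16483 to 17089 CPM with NEDD8i and 12733 to 12866 CPM with DMSO in A431. Single markers moved in both directions. In CAL27 10 were called higher and 4 lower (DSP, KRT5, PKP1 and TP63), and in A431 8 were called higher and 3 lower (KRT5, KRT8 and PKP1; edgeR, adjusted p below 0.05). Over all 18738 genes tested, 23.2% were called higher and 26.4% lower in CAL27, and 22.5% and 21.1% in A431. TP63, a transcription factor of squamous cells, was at 116 CPM with NEDD8i and 526 CPM with DMSO in CAL27. In A431 it was at 265 CPM with NEDD8i and 284 CPM with DMSO. These are bulk RNA values, in which fewer cells expressing a gene and less RNA per cell cannot be told apart.

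Microtubules are hollow polymers of alpha and beta tubulin that carry transport, shape the cell and build the mitotic spindle. Structural microtubule-associated proteins bind along the polymer and change its stability, its bundling or the access of motors. MAP2 is best known from neuronal dendrites, MAPT (tau) from axons and MAP4 from non-neuronal cells. NEDD8 is a ubiquitin-like protein whose attachment to cullins activates cullin-RING ubiquitin ligases, and inhibitors of that attachment stabilise the proteins those ligases mark for degradation.

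Start-site windows of 300 bases, 250 before and 50 after each start, were taken from RefSeq (GRCh38.p14) for 9 of the genes, 20 windows in all. Shown are 2 of the 3 MAP2 windows and the first window of MAP1B, since the levels of both genes were higher with NEDD8i in both lines, and the first window of STMN1, whose level was lower with NEDD8i in A431. They lie at chr2:209661246-209661545 and chr2:209579357-209579656 (MAP2, plus strand), chr5:72107225-72107524 (MAP1B, plus strand) and chr1:25906370-25906669 (STMN1, minus strand). Sequences run 5' to 3' on the gene's strand, and capitals mark matches to the motifs given in the next paragraph.
MAP2 window 1: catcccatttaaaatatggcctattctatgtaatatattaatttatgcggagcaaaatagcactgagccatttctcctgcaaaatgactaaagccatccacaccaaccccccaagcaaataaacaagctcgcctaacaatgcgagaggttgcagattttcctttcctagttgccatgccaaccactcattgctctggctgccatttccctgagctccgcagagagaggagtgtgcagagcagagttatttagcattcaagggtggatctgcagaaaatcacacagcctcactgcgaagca
MAP2 window 3: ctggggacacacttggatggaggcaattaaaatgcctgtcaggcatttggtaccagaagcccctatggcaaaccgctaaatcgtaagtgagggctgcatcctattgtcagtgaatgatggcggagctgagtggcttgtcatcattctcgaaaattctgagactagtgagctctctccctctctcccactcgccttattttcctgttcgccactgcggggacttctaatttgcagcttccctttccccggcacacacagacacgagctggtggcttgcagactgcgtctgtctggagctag
MAP1B window 1: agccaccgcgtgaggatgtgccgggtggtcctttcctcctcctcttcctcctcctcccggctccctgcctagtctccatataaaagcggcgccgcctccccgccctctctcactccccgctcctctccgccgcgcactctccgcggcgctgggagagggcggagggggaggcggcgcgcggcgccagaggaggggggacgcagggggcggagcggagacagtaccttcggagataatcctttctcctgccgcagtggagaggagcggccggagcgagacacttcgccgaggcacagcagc
STMN1 window 1: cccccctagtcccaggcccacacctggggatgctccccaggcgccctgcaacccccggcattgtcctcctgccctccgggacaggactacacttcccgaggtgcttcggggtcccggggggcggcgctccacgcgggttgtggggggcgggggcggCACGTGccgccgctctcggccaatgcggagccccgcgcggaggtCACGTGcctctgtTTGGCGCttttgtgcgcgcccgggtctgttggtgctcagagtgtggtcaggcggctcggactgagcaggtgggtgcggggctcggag

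The motifs were TGACNNNGC (antioxidant response element core), ACGTG (hypoxia response element core), TTCCCGC and TTGGCGC (E2F cores) and TGATGNAA (amino acid response core), searched on both strands. They occurred in 13.3%, 21.4%, 6.55%, 3.04% and 3.62% of 35116 RefSeq windows of the same length. None of the 3 MAP2 windows held any of these letter strings. In the STMN1 window shown, ACGTG matched at 2 places on both strands, since CACGTG is its own reverse complement, and TTGGCGC matched once. A further STMN1 window held TTCCCGC, MAP1B held ACGTG in its second window, and TGACNNNGC was found in 1 window each of MAP1A, MAP4 and TUBB3. The 3 MAP2 windows contained 45.3%, 40% and 52.3% G and C, below the median of 58.7% over all windows, whereas the MAP1B and STMN1 windows shown contained 70% and 72.7%. Counts from 3' ends do not show which start site was used, and a match is a description of letters only.

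MAP2 had the pattern that led to this group of genes. MAP2 (ENSG00000078018.21, chromosome 2, 209424047 to 209734118, plus strand, GRCh38) was at 138 and 121 CPM in the CAL27 NEDD8i libraries and 4.26 and 5.42 CPM in the CAL27 DMSO libraries. In A431 it was at 245.3 and 244.6 CPM with NEDD8i and 7.44 and 8.27 CPM with DMSO. All 4 NEDD8i libraries stood above all 4 DMSO libraries, and the 2 lines did not overlap under either treatment.

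The fitted change of MAP2 was 4.73 ± 0.10 on the log2 scale (26.5-fold, approximate SE) in CAL27 and 4.96 ± 0.09 (31.2-fold) in A431. Ranked by log2 change from the highest down, MAP2 stood at place 162 in CAL27 and 178 in A431 among 18738 genes. The CAL27 change minus the A431 change was -0.24 ± 0.13. Under DMSO the CAL27 level minus the A431 level was -0.68 ± 0.11. These values rest on many reads, with 7401 and 7237 counts against 230 and 358 in CAL27, and 11209 and 13432 counts against 428 and 426 in A431, NEDD8i before DMSO. No exonic base of MAP2 lies within the exons of another gene.

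Neuronal markers were examined because MAP2 is used as one. Of 17 such genes, 13 had a count in any library and 6 passed the filter. INA, GAP43, ELAVL4 and STMN2 had 0 counts in all 8 libraries. The summed level of the list was 63.2 to 63.5 CPM with NEDD8i and 31.7 to 32.1 CPM with DMSO in CAL27, and 81.4 to 87.0 CPM with NEDD8i and 26.0 to 27.2 CPM with DMSO in A431. Most of it was ENO2, a glycolytic enzyme (enolase 2), with 51.2 CPM with NEDD8i and 19.96 CPM with DMSO in CAL27, and 82.5 CPM with NEDD8i and 25.6 CPM with DMSO in A431. ENO2 and UCHL1, a ubiquitin hydrolase, were called higher in both lines and NEFL, a neurofilament subunit, was called lower in both, while CHGA was called higher in A431 (edgeR, adjusted p below 0.05). Of these, NEFL, CHGA and UCHL1 were near the limit of detection in A431. With NEDD8i and DMSO they averaged 0 and 0.244 CPM (NEFL), 0.576 and 0 CPM (CHGA), and 0.452 and 0.110 CPM (UCHL1). The UCHL1 call in A431 was lost when the A431 libraries were fitted alone (adjusted p = 0.0803). The part of these genes in the MAP2 result was not tested.

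**Figure D1:**
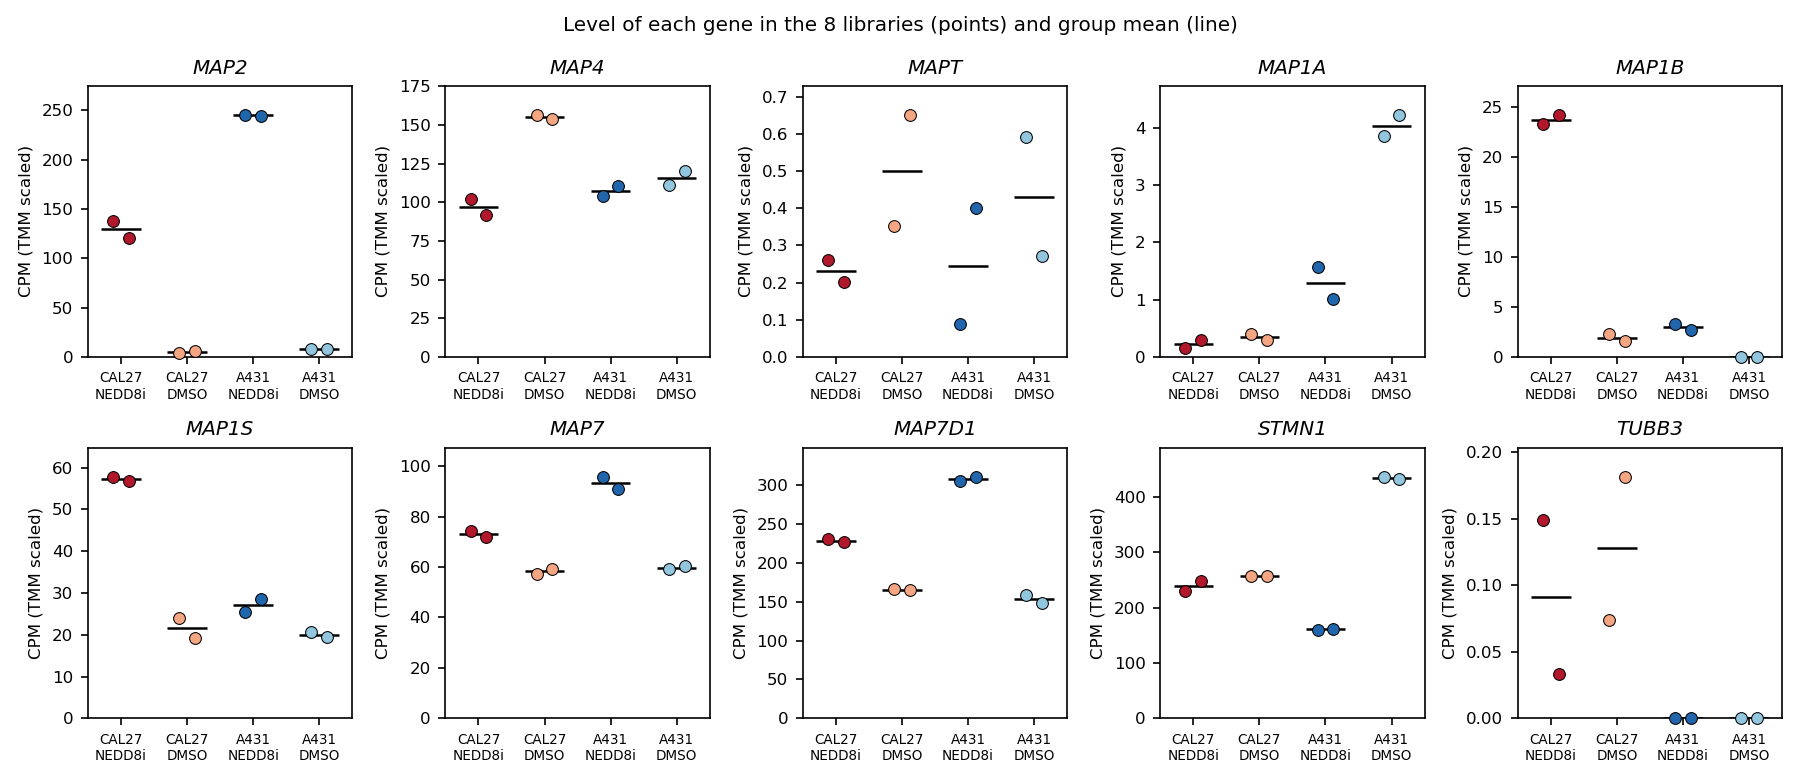
Level of each of the 10 genes in CPM (vertical axes from 0, 1 scale per gene) in the 8 libraries, with CAL27 left of A431 and NEDD8i left of DMSO. Points are libraries and lines are group means of 2 libraries. MAP2 stood at 121 to 138 CPM in CAL27 and 244.6 to 245.3 CPM in A431 with NEDD8i, and at 4.26 to 8.27 CPM in the DMSO libraries.

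The relatives of MAP2 that share its tubulin-binding repeats, MAP4 and MAPT, did not follow it. MAP4 (ENSG00000047849.22, chromosome 3, 47850695 to 48089272, minus strand) was at 102 and 91.6 CPM in the CAL27 NEDD8i libraries and 156 and 154 CPM in the CAL27 DMSO libraries. The A431 libraries held 104 and 110.5 CPM with NEDD8i and 111 and 120.4 CPM with DMSO. The treatment groups stood well apart in CAL27 and lay side by side in A431.

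MAP4 fell in CAL27, with a log2 change of -0.68 ± 0.06 (1.60-fold lower, edgeR quasi-likelihood test, adjusted p = 5.39e-08). In A431 its change was -0.11 ± 0.06 (adjusted p = 0.172, 95% interval -0.24 to 0.02). The 2 responses differed by -0.57 ± 0.09 (edgeR adjusted p = 5.97e-05). MAP4 was higher in CAL27 than in A431 under DMSO (0.42 ± 0.06, edgeR adjusted p = 1.19e-05), and with NEDD8i its group mean was lower in CAL27, at 96.8 CPM, than in A431, at 107 CPM.

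MAPT (ENSG00000186868.17, chromosome 17, 45894527 to 46028334, plus strand) was near the limit of detection. It had 14 and 12 counts in the CAL27 NEDD8i libraries and 19 and 43 in the CAL27 DMSO libraries. In A431 it had 4 and 22 counts with NEDD8i and 34 and 14 with DMSO. With the groups ranked by mean level, each overlapped the next in rank. The CAL27 treatment groups were not next to each other. Both CAL27 NEDD8i libraries (14 and 12 counts) lay below both CAL27 DMSO libraries (19 and 43 counts). In A431 the treatment groups overlapped. The interval of the log2 change of MAPT was wide in CAL27, at -3.00 to 0.76 (edgeR adjusted p = 0.326). It was also wide in A431, at -2.69 to 1.09 (edgeR adjusted p = 0.513). A difference of either sign was not detectable at this depth.

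The MAP1 family, large proteins made as precursors and cut into heavy and light chains, moved in different directions. MAP1B and MAP1S rose in both lines and MAP1A fell in A431. MAP1B, known for axon growth, is on chromosome 5 (ENSG00000131711.15, 72107475 to 72209565, plus strand). It was at 23.3 and 24.2 CPM in the CAL27 NEDD8i libraries and 2.26 and 1.54 CPM in the CAL27 DMSO libraries. In A431 it was at 3.24 and 2.73 CPM with NEDD8i, from 148 and 150 counts, and had 0 counts in both DMSO libraries. The 4 groups did not overlap.

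In CAL27 the log2 change of MAP1B was 3.65 ± 0.21 (12.6-fold, edgeR adjusted p = 2.55e-10). In A431 MAP1B was called higher (edgeR adjusted p = 1.32e-09). Set against a floor of 3 counts over the 2 DMSO libraries it was at least 108-fold higher, a log2 change of at least 6.75. Mates of a pair were counted separately, so 3 counts can be fewer than 3 fragments. A higher floor would weaken each bound given here for MAP1B. The responses differed (edgeR adjusted p = 0.000143), and the CAL27 log2 change minus the A431 log2 change was -3.10 or lower with that floor. In level the order was the reverse, since CAL27 DMSO cells were at least 67.9-fold above A431 DMSO cells with the same floor (edgeR adjusted p = 3.36e-09).

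MAP1S, a small and widely expressed family member linked to autophagy, lies on chromosome 19 (ENSG00000130479.11, 17719480 to 17734513, plus strand). It was at 57.9 and 56.8 CPM in the CAL27 NEDD8i libraries and 24.0 and 19.3 CPM in the CAL27 DMSO libraries. Its A431 level was 25.4 and 28.7 CPM with NEDD8i and 20.6 and 19.5 CPM with DMSO. The DMSO groups of the 2 lines overlapped and both NEDD8i groups stood above them.

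MAP1S rose by 1.41 ± 0.10 in CAL27 (2.65-fold, edgeR adjusted p = 2.79e-09) and by 0.43 ± 0.10 in A431 (1.35-fold, edgeR adjusted p = 0.00242), both on the log2 scale. The CAL27 response was larger by 0.98 ± 0.14 (edgeR adjusted p = 4.26e-05). Exons of an unnamed gene with 0 counts cover 6.09% of its exonic bases.

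MAP1A, the family member of mature neurons, lies on chromosome 15 (ENSG00000166963.13, 43510958 to 43531620, plus strand). It was at 0.149 and 0.301 CPM in the CAL27 NEDD8i libraries and 0.408 and 0.303 CPM in the CAL27 DMSO libraries, from 8 to 22 counts each. The A431 libraries were at 1.58 and 1.02 CPM with NEDD8i and 3.86 and 4.23 CPM with DMSO. MAP1A fell in A431 (-1.64 ± 0.40, 3.12-fold lower, edgeR adjusted p = 0.00257) and was not called in CAL27 (-0.63 ± 0.50, adjusted p = 0.323). The difference between these responses, 1.01 ± 0.64, was not called (edgeR adjusted p = 0.259). Under DMSO, MAP1A was 11.4-fold lower in CAL27 than in A431 (log2 difference -3.51 ± 0.44, edgeR adjusted p = 2.3e-06).

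MAP7 and MAP7D1, of the family that recruits the motor kinesin-1 to microtubules, rose in both lines, and more so in A431. Their relatives MAP7D2 and MAP7D3, named here after their values were seen, did not rise. MAP7D3 was not called in CAL27 (log2 change 0.06, edgeR adjusted p = 0.716) or A431 (-0.15, adjusted p = 0.36). MAP7D2 averaged 0.0186 CPM with NEDD8i and 0.36 CPM with DMSO in CAL27, where it was called lower (edgeR adjusted p = 0.0134), a call lost without CAL27 DMSO replicate 2 (adjusted p = 0.0941) and without CAL27 NEDD8i replicate 2 (0.112). In A431 it averaged 0.0984 CPM with NEDD8i and 0.368 CPM with DMSO (edgeR adjusted p = 0.186). MAP7 (ENSG00000135525.19, chromosome 6, 136342281 to 136550819, minus strand), also called ensconsin and typical of epithelial cells, was at 74.2 and 72.0 CPM in the CAL27 NEDD8i libraries and 57.4 and 59.2 CPM in the CAL27 DMSO libraries. Its A431 level was 95.9 and 91.1 CPM with NEDD8i and 59.0 and 60.6 CPM with DMSO. The DMSO groups of the lines overlapped, and both NEDD8i groups were higher.

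The log2 change of MAP7 was 0.33 ± 0.06 in CAL27 (edgeR adjusted p = 0.000213) and 0.64 ± 0.06 in A431 (edgeR adjusted p = 1.3e-07). Its responses differed by -0.32 ± 0.09 (edgeR adjusted p = 0.00757), a call that was lost without A431 NEDD8i replicate 1 (-0.27, adjusted p = 0.0591) and without CAL27 DMSO replicate 2 (-0.28, adjusted p = 0.0536). The antisense gene MAP7-AS1 covers 2.92% of the exonic bases of MAP7 and had 18 to 145 counts in a library. Counting ignored strand.

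MAP7D1 (ENSG00000116871.16, chromosome 1, 36155965 to 36180849, plus strand), the broadly expressed relative of MAP7, was at 230.4 and 227 CPM in the CAL27 NEDD8i libraries and 166 and 165 CPM in the CAL27 DMSO libraries. In A431 it was at 305 and 311 CPM with NEDD8i and 158 and 149 CPM with DMSO. It rose by 0.47 ± 0.05 on the log2 scale in CAL27 (edgeR adjusted p = 1.81e-07) and by 1.005 ± 0.05 in A431 (2.01-fold, edgeR adjusted p = 1.47e-11). The responses differed by -0.54 ± 0.07 (edgeR adjusted p = 5.3e-06). Exons of TRAPPC3, which had 3097 to 7272 counts in a library, cover 2.49% of the exonic bases of MAP7D1. The 4 groups did not overlap, although the DMSO groups were close, with CAL27 above A431 by 0.11 ± 0.05 (edgeR adjusted p = 0.055). That last comparison passed the threshold under several alternatives and in 4 of the 8 fits that left out 1 library, with adjusted p of 0.0262 without A431 DMSO replicate 1, 0.038 without A431 NEDD8i replicate 2, 0.0164 without CAL27 NEDD8i replicate 1 and 0.016 without CAL27 NEDD8i replicate 2.

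STMN1 (stathmin 1, ENSG00000117632.23, chromosome 1, 25885440 to 25906991, minus strand) binds tubulin dimers and promotes the shrinking of microtubules. It was at 230.5 and 248.7 CPM in the CAL27 NEDD8i libraries and 257.0 and 256.9 CPM in the CAL27 DMSO libraries. In A431 it was at 159.8 and 162 CPM with NEDD8i and 437 and 432 CPM with DMSO. The A431 groups were far apart and lay on either side of the CAL27 groups.

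STMN1 fell in A431, with a log2 change of -1.43 ± 0.05 (2.70-fold lower, edgeR adjusted p = 1.22e-13). In CAL27 the change was -0.10 ± 0.05, with an adjusted p of 0.0781 and a 95% interval of -0.197 to -0.00448, and leaving out CAL27 NEDD8i replicate 2 gave -0.15 with an adjusted p of 0.0142 (edgeR). The responses differed by 1.33 ± 0.06 (edgeR adjusted p = 8.41e-11). Under DMSO, STMN1 was lower in CAL27 than in A431 (log2 difference -0.76 ± 0.05, edgeR adjusted p = 1.62e-10). Exons of MIR3917, which had 0 counts, cover 2.63% of its exonic bases.

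Proliferation genes were lower with NEDD8i in both lines. Of 20 such genes, 16 were called lower in CAL27 and 18 in A431, and 0 were called higher in either line. Over all genes tested, 26.4% were called lower in CAL27 and 21.1% in A431, and 23.2% and 22.5% higher. Their summed level was 2127 to 2183 CPM with NEDD8i and 4647 to 4756 CPM with DMSO in CAL27, and 1389 to 1437 CPM with NEDD8i and 3429 to 3506 CPM with DMSO in A431. Their part in the result was not tested.

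TUBB3, a beta tubulin typical of neurons, could not be measured with these counts. TUBB3 (ENSG00000258947.8, chromosome 16, 89921851 to 89938761, plus strand) had 8 and 2 counts in the CAL27 NEDD8i libraries, 4 and 12 in the CAL27 DMSO libraries, and 0 in all 4 A431 libraries. An annotated gene (ENSG00000198211.8) overlaps 51.7% of its 3062 exonic bases, including 1364 of the 1369 bases of the exon block from 89934729 to 89936097. Reads over both genes were dropped in the counting, and the overlapping gene had 0 counts in every library. The low values of TUBB3 therefore say little about its transcript.

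**Figure D2:**
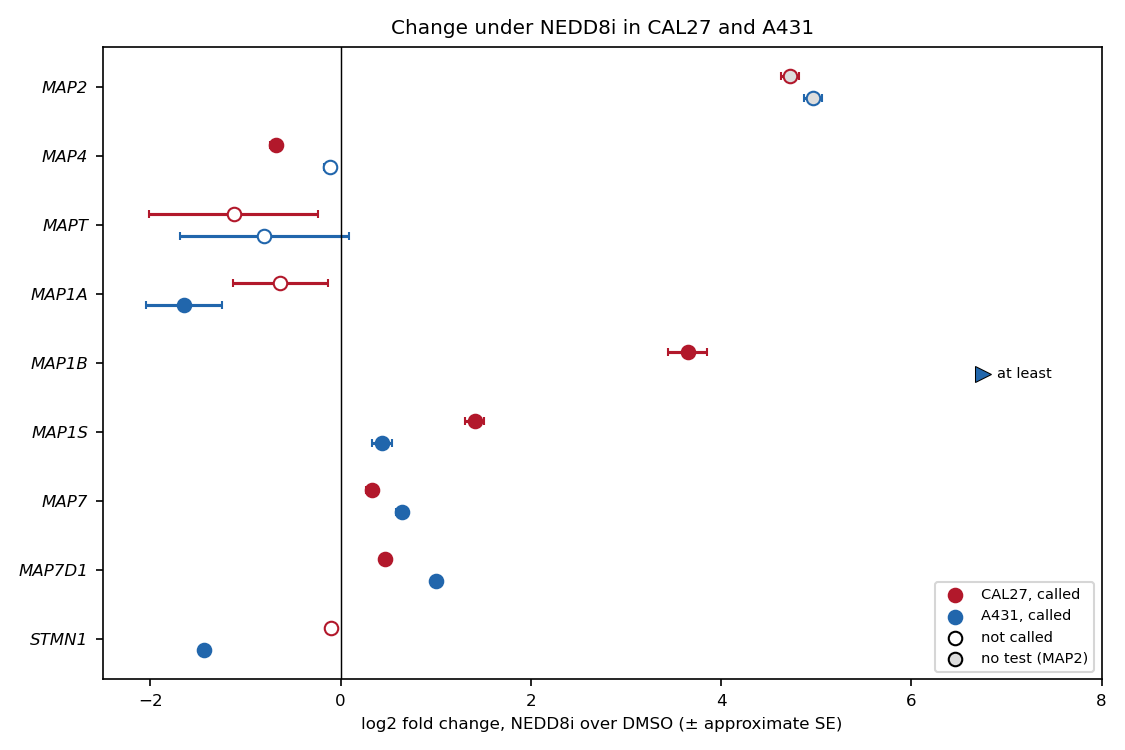
Log2 change with NEDD8i over DMSO (horizontal axis) for the 9 genes that passed the filter, in CAL27 (upper point of each pair) and A431 (lower point). Bars are approximate standard errors and filled points passed an adjusted p of 0.05; MAP2 was not tested, and the triangle marks the lower bound of 6.75 for MAP1B in A431. MAP2, MAP1B, MAP1S, MAP7 and MAP7D1 lie right of 0 in both lines.

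Of the 8 tested genes, 4 were called higher and 1 lower in CAL27, where 23.2% of the 18738 genes tested were called higher and 26.4% lower. In A431 4 were called higher and 2 lower, where 22.5% and 21.1% of all genes were called. MAP1B, MAP1S, MAP7 and MAP7D1 were the genes called higher, in both lines. The median log2 change over the 9 genes that passed the filter, MAP2 among them, was 0.33 in CAL27 and 0.43 in A431. Over all genes it was -0.04 and -0.01. Since MAP2 under these contrasts led to the group and enters these medians, nothing is read from the counts or the medians.

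The response differed between lines for 6 of the 8 tested genes, with 2 higher in CAL27 (MAP1S and STMN1) and 4 lower (MAP1B, MAP4, MAP7 and MAP7D1). Over all genes 14.2% were called higher and 19.8% lower in this comparison. The lower values have unlike origins. MAP1B, MAP7 and MAP7D1 rose in both lines and rose more in A431 on the log2 scale, whereas MAP4 fell in CAL27 and was not called in A431. For MAP1B the group mean went from 1.90 CPM with DMSO to 23.7 CPM with NEDD8i in CAL27. In A431 it went from 0 CPM to 2.98 CPM. Under DMSO, 2 genes were higher in CAL27 than in A431 (MAP1B and MAP4) and 2 were lower (MAP1A and STMN1), against 29.9% and 29% of all genes. MAP1S (edgeR adjusted p = 0.402), MAP7 (0.645), MAP7D1 (0.055) and MAPT (0.852) were not called there.

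The genes whose pattern lay closest to that of MAP2 were GPAT3, CYP4F11, NRCAM, PNLIPRP3 and SRXN1. Likeness was the root mean square distance between log2 CPM profiles over the 8 libraries, each centred on its own mean, among 18737 genes, and it was 0.436 for GPAT3, 0.540 for CYP4F11, 0.598 for NRCAM, 0.617 for PNLIPRP3 and 0.645 for SRXN1. GPAT3, an acyltransferase of glycerolipid synthesis, averaged 76.0 ± 0.938 CPM with NEDD8i and 5.74 ± 0.538 CPM with DMSO in CAL27, and 252 ± 5.14 CPM with NEDD8i and 9.84 ± 0.686 CPM with DMSO in A431 (SD, n = 2 each). CYP4F11, a cytochrome P450 that hydroxylates fatty acids, averaged 179.7 ± 9.41 and 13.7 ± 0.0308 CPM with NEDD8i and DMSO in CAL27, and 322 ± 5.85 and 22.1 ± 0.589 CPM with NEDD8i and DMSO in A431 (SD, n = 2 each). NRCAM, a cell adhesion molecule, averaged 1.35 CPM in CAL27 and 0.948 CPM in A431 with NEDD8i and had 0 counts in all DMSO libraries. GPAT3 and CYP4F11, like MAP2, were higher in A431 than in CAL27 under both treatments. Since closeness to MAP2 in these libraries picked the 5 genes, such likeness follows from the choice. Other genes overlap 90.7% of the exonic bases of SRXN1 (sulfiredoxin), so its counts come from a small part of the gene.

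**Figure D3:**
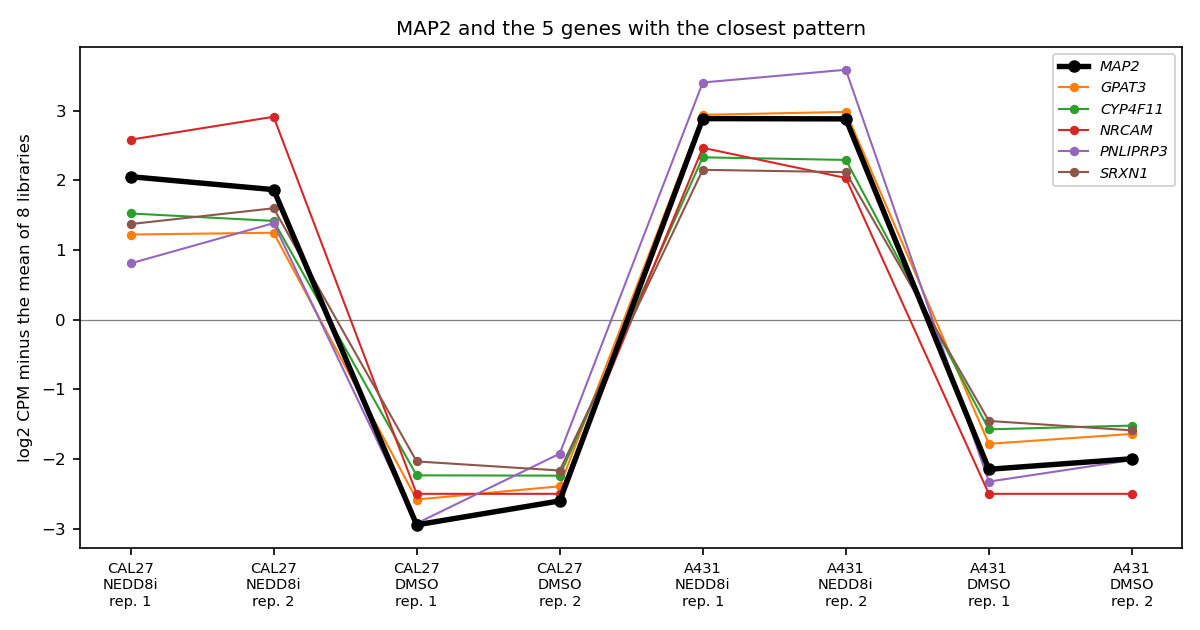
Centred log2 CPM (vertical axis) of MAP2 and the 5 genes closest to it in the 8 libraries (horizontal axis), joined by lines for reading only. The distances to MAP2 range from 0.436 for GPAT3 to 0.645 for SRXN1. The DMSO points of NRCAM, which had no counts there, lie at a floor set by the prior count. All 6 genes lie above their own mean in the 4 NEDD8i libraries and below it in the 4 DMSO libraries. As the 5 were picked for closeness to MAP2 in these same libraries, that shared pattern follows from the choice.

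Other genes of microtubule biology were examined as 9 lists of 119 genes, none of them among the 10, of which 101 passed the filter. In CAL27 33 were called higher and 29 lower, which is 32.7% and 28.7% of those tested, beside 23.2% and 26.4% over all genes, with a median log2 change of 0.00. In A431 33 were called higher and 27 lower, 32.7% and 26.7%, beside 22.5% and 21.1% over all genes, with a median of -0.07. The counts of the single lists stand against the same shares over all genes and rest on 1 to 21 tested genes each.

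Among 20 microtubule plus-end proteins, which track or guide growing ends, 5 were called higher and 7 lower in CAL27, and 7 higher and 9 lower in A431. NAV3 (neuron navigator 3) rose in both lines. It averaged 31.8 ± 1.08 CPM with NEDD8i and 2.05 ± 0.544 CPM with DMSO in CAL27 (log2 change 3.94 ± 0.18, edgeR adjusted p = 5.68e-12), and 13.7 ± 0.978 CPM with NEDD8i and 0.529 ± 0.158 CPM with DMSO in A431 (4.71 ± 0.22, edgeR adjusted p = 1.32e-11; SD of levels, n = 2 each). Its responses differed by -0.77 ± 0.30, which was not called (edgeR adjusted p = 0.0586).

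NAV2, of the same family, fell in CAL27, with 5.79 CPM with NEDD8i and 25.3 CPM with DMSO (log2 change -2.13). CLIP2, a linker of plus ends, fell there by -1.58 on that scale. Both were called lower in A431 too, NAV2 by -1.37 (edgeR adjusted p = 4.86e-08) and CLIP2 by -0.27 (edgeR adjusted p = 0.0352). MAPRE2, an end-binding protein, fell in A431 to 11.6 CPM with NEDD8i, against 38.1 CPM with DMSO (-1.71). APC2 also fell in A431 (-1.52, edgeR adjusted p = 0.0322), a call lost without A431 DMSO replicate 2 (-1.30, adjusted p = 0.0997) and without A431 NEDD8i replicate 2 (-0.98, adjusted p = 0.229).

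Of 20 other structural proteins, 3 were called higher and 7 lower in CAL27, and 3 higher and 6 lower in A431. CKAP2, a mitotic spindle protein, fell in both lines, with 104 CPM with NEDD8i and 193 CPM with DMSO in CAL27 (log2 change -0.89) and 34.3 CPM with NEDD8i and 74.1 CPM with DMSO in A431 (-1.11). EML3 fell in CAL27 (-1.16) and was called lower in A431 too, at 40.1 CPM with NEDD8i and 59.7 CPM with DMSO. JPT1 fell in A431 (-0.66) and was not called in CAL27. CAMSAP1, which caps minus ends, rose in A431 (0.72). It was called higher in CAL27 too, at 114 CPM with NEDD8i and 84.1 CPM with DMSO. MAP6, a stabiliser of cold-resistant microtubules, was called lower in CAL27 (-2.44, edgeR adjusted p = 0.00731) at low levels of 0.364 CPM with NEDD8i and 1.99 CPM with DMSO. That call was lost without CAL27 DMSO replicate 1 (-1.95, adjusted p = 0.179) and without CAL27 NEDD8i replicate 1 (-2.08, adjusted p = 0.0524).

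Of 10 further alpha and beta tubulins, 6 were called higher and 1 lower in CAL27, and 3 higher and 3 lower in A431. Tubulin genes are near-identical in parts, reads that matched several places were dropped, and their values are uncertain. TUBB6 rose in both lines, with 368 CPM with NEDD8i and 207 CPM with DMSO in CAL27 (log2 change 0.83) and 250.2 CPM with NEDD8i and 212 CPM with DMSO in A431 (0.24). TUBB2A rose in CAL27 (1.04) and was not called in A431 (0.11, edgeR adjusted p = 0.52). TUBA4A rose in A431 (0.82) and in CAL27 (0.63, edgeR adjusted p = 3.38e-08). Other genes overlap 21.7% of the exonic bases of TUBB6 and 24.5% of those of TUBA4A. TUBB2B was called higher in CAL27 (1.37, edgeR adjusted p = 0.0162), a call lost without CAL27 DMSO replicate 2 (0.91, adjusted p = 0.184) and without CAL27 NEDD8i replicate 2 (1.30, adjusted p = 0.0838). TUBA1A was called lower in A431 (-0.51, edgeR adjusted p = 0.0127), a call lost without A431 DMSO replicate 2 (-0.32, adjusted p = 0.14) and without A431 NEDD8i replicate 1 (-0.49, adjusted p = 0.0538).

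The 6 tubulin folding factors tested gave 3 higher and 3 lower calls in CAL27 and 1 higher and 3 lower in A431. TBCD, which holds beta tubulin during dimer assembly, fell to 41.2 CPM with NEDD8i, against 83.2 CPM with DMSO, in CAL27 (log2 change -1.01) and to 100.3 CPM with NEDD8i, against 172 CPM with DMSO, in A431 (-0.78). TBCEL fell in both lines (-1.03 in CAL27 and -0.80 in A431). ARL2, a small GTPase that works with TBCD, fell in CAL27 (-0.64), and TBCA rose in A431 (0.51). ARL2 was called lower in A431 too, at 33.3 CPM with NEDD8i and 43.8 CPM with DMSO. TBCA was called higher in CAL27 too, at 122 CPM with NEDD8i and 109.8 CPM with DMSO. Other genes overlap 21.5% of the exonic bases of TBCD, 17.1% of those of TBCEL and 39.2% of those of ARL2.

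Of 21 tubulin-modifying enzymes, 4 were called higher and 6 lower in CAL27, and 5 higher and 4 lower in A431. HDAC6, a tubulin deacetylase, fell in CAL27, with 13.2 CPM with NEDD8i and 24.6 CPM with DMSO (log2 change -0.90). TTLL7, a polyglutamylase, rose there (1.29) and TPGS1, a subunit of another polyglutamylase, fell (-1.55). HDAC6 was called lower and TTLL7 higher in A431 too, TTLL7 at low levels of 0.689 CPM with NEDD8i and 0.095 CPM with DMSO. TPGS1 was not called in A431. The polyglutamylases TTLL1 and TTLL4 moved apart in A431. There TTLL1 was at 0.548 CPM with NEDD8i and 4.23 CPM with DMSO (-2.94), and TTLL4 at 54.1 CPM with NEDD8i and 30.6 CPM with DMSO (0.82). TTLL1 was called lower in CAL27 too, at 0.158 CPM with NEDD8i and 0.894 CPM with DMSO, and TTLL4 was not called there. MATCAP1, which removes the last tyrosine of alpha tubulin, rose in A431 (1.02). It was called lower in CAL27, at 4.43 CPM with NEDD8i and 6.39 CPM with DMSO, and its responses differed between the lines (edgeR, adjusted p below 0.05). Other genes overlap 22.5% of the exonic bases of TTLL1 and 30.3% of those of TPGS1.

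Of 7 severing proteins, 3 were called higher and 1 lower in CAL27, and 5 higher and 1 lower in A431. KATNA1, the catalytic subunit of katanin, rose in both lines, with 32.4 CPM with NEDD8i and 15.7 CPM with DMSO in CAL27 (log2 change 1.04) and 29.5 CPM with NEDD8i and 18.8 CPM with DMSO in A431 (0.65). KATNAL1 (0.90) and FIGNL1 (0.34) rose in CAL27, and SPAST (spastin, 0.59) rose in A431. In A431 KATNAL1 (0.46, edgeR adjusted p = 0.0267) and FIGNL1 (0.23, edgeR adjusted p = 0.013) were called higher too. SPAST was not called in CAL27 (-0.04, edgeR adjusted p = 0.744).

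Of 13 kinase genes whose products phosphorylate microtubule-associated proteins, 8 were called higher and 3 lower in CAL27, and 8 higher and 1 lower in A431. CDK5R1, the p35 activator of CDK5, rose in both lines, with 18.9 CPM with NEDD8i and 8.03 CPM with DMSO in CAL27 (log2 change 1.23) and 8.78 CPM with NEDD8i and 2.54 CPM with DMSO in A431 (1.79). GSK3A rose in CAL27 (0.66) and in A431 (0.50, edgeR adjusted p = 3.89e-05). MARK4, which phosphorylates the repeats of MAP2, MAP4 and tau, rose in A431 (0.75) and in CAL27 (0.33, edgeR adjusted p = 0.00611). Other genes overlap 14.5% of the exonic bases of GSK3A. SIK1 was called lower in both lines (-0.87 in CAL27 and -0.97 in A431, edgeR adjusted p = 0.0181 and 0.00932). The SIK1 call in CAL27 was lost without CAL27 DMSO replicate 1 (adjusted p = 0.0912), without CAL27 DMSO replicate 2 (0.0531) and without CAL27 NEDD8i replicate 2 (0.181), and the call in A431 without A431 DMSO replicate 1 (0.0973) and without A431 NEDD8i replicate 2 (0.0568).

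STMN3 was the single tested relative of STMN1. It fell in CAL27 to 4.73 ± 1.11 CPM with NEDD8i, against 22.1 ± 0.847 CPM with DMSO (SD, n = 2 each; log2 change -2.22, edgeR adjusted p = 1.05e-07), and was at 0.131 CPM with NEDD8i and 0.275 CPM with DMSO in A431 (-0.98, adjusted p = 0.158). Of 3 collapsin response mediators, tubulin-binding proteins of growing axons, 1 was called higher in each line, and the gene differed. DPYSL2 rose in CAL27, with 3.77 CPM with NEDD8i and 1.18 CPM with DMSO (1.66). DPYSL2 was not called in A431 (-0.336, edgeR adjusted p = 0.074), and its responses differed by 1.995 (edgeR adjusted p = 3.87e-06). The gene called in A431 was DPYSL3, near the limit of detection. It averaged 0.0947 CPM with NEDD8i and 0 CPM with DMSO there (edgeR adjusted p = 0.0198). DPYSL3 was not called in CAL27 (edgeR adjusted p = 0.391).

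**Figure D4:**
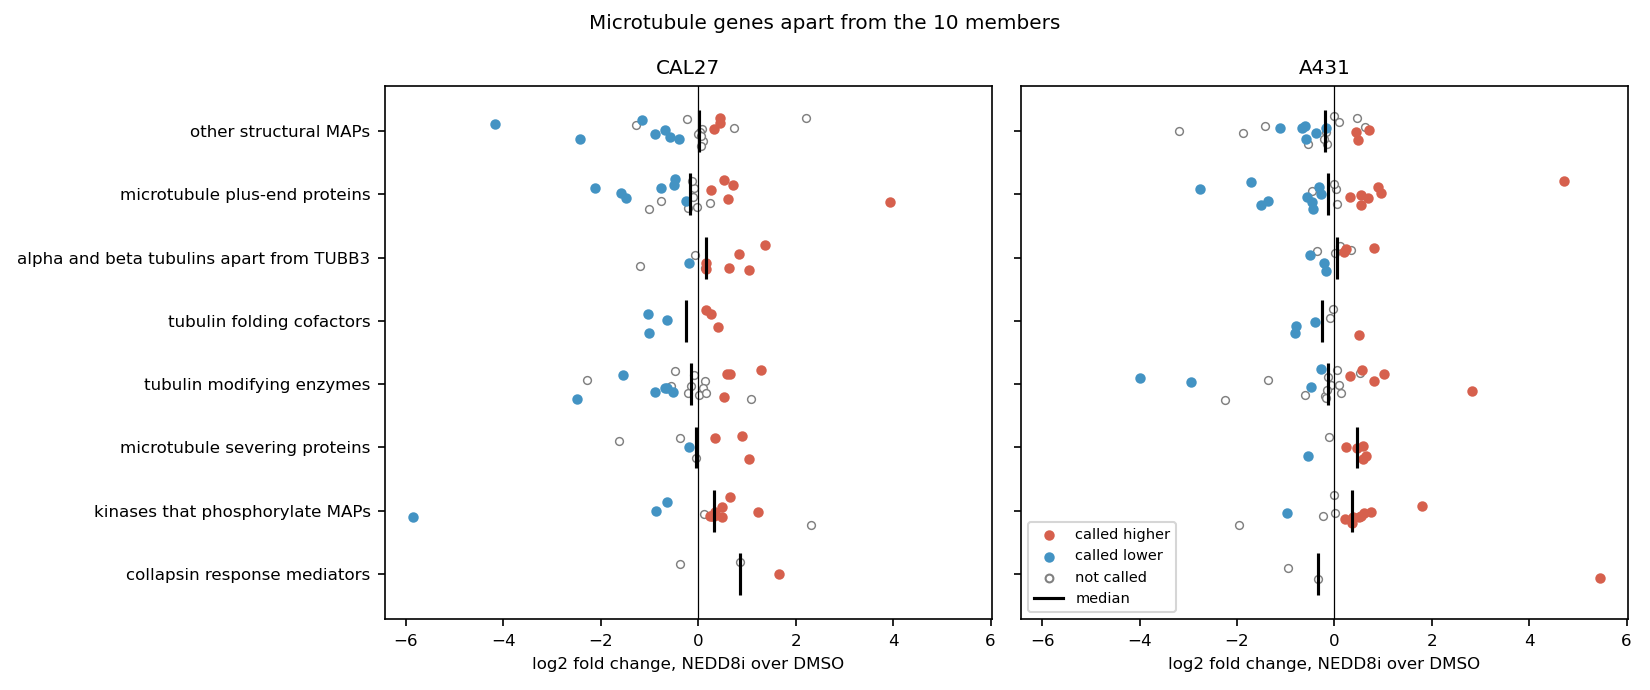
Log2 change with NEDD8i over DMSO (horizontal axes) of the tested genes of 8 microtubule lists (rows) in CAL27 (left) and A431 (right); the list of STMN1 relatives, with 1 tested gene, is left out. Filled points passed an adjusted p of 0.05 and black bars are medians. The point near 4 in CAL27 and near 5 in A431 among plus-end proteins is NAV3 (3.94 and 4.71), and points of genes with 0 counts in a group depend on the prior count of the fit.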

How the data were processed

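The authors deposited raw counts per gene for each of the 8 libraries, in 4 groups of 2. The submitters' processing notes name STAR and GRCh38 (STAR version: not given in the sources used here). Counting, per the file headers, used featureCounts 2.0.8 over GENCODE 39 exons, without strand, with each mate of a pair counted separately and with reads over several genes or places dropped. Even values made up 70.2% to 76.7% of gene counts from 1 to 40. Counting errors are therefore larger than the counts imply, and overlapping or near-identical genes are undercounted.

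From these counts, a fit with edgeR 4.0.16 (R 4.3.3) over all 8 libraries gave each group a mean, with TMM scaling and filterByExpr, which left 18738 genes. Quasi-likelihood tests gave p-values that were adjusted by Benjamini-Hochberg over those genes and called below 0.05. The fit had 12.3 prior degrees of freedom and a biological coefficient of variation of 0.0852. Standard errors are approximate, the log2 change divided by the square root of F. The floor for a group at 0 was 3 counts over its 2 libraries. The fit was first tested on simulated data. Replicates correlated with r = 0.981 to 0.986 across genes and differed by 6.54 to 14.1 times sampling noise, so none was a copy.

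The members and the lists were chosen with earlier results of these data known. All 10 genes are named. From each microtubule list the 3 genes with the largest called change per line, among those averaging at least 1 CPM in a group of that line, are named, with the 5 genes closest to MAP2. One result under this rule is not reported here. Some of the marker genes that were called or had 0 counts are also named, outside that rule, as are MAP7D2, MAP7D3 and DPYSL3. Of the squamous markers, only those called lower in a line are named, and the proliferation genes are not named. Symbols matched 61415 of 61533 identifiers. Overlap of exons was computed with GenomicRanges 1.54.1. Alternatives were another scaling, other filters, DESeq2 1.42.0, a replicate block, each line alone, each library left out and, chosen after seeing the data, halved counts rounded up.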

Additional observations from a re-analysis of the deposited data

Results flagged for a closer look

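The response to NEDD8i differed between the lines for 6 of the 8 tested genes by an interaction test (edgeR, adjusted over all 18738 genes). Over all genes, 14.2% were called higher and 19.8% lower in the same test. The CAL27 change minus the A431 change was 0.98 for MAP1S (adjusted p = 4.26e-05) and 1.33 for STMN1 (adjusted p = 8.41e-11) on the log2 scale. It was -0.57 for MAP4 (adjusted p = 5.97e-05), -0.32 for MAP7 (adjusted p = 0.00757) and -0.54 for MAP7D1 (adjusted p = 5.3e-06). The MAP7 call was lost without A431 NEDD8i replicate 1 (-0.27) and without CAL27 DMSO replicate 2 (-0.28). For MAP1B the fitted difference was -6.72 (adjusted p = 0.000143), a value that depends on the prior count because both A431 DMSO libraries had 0 counts, and against the floor of 3 counts it was -3.10 or lower. In MAP1S both CAL27 NEDD8i libraries, at 57.9 and 56.8 CPM, stood above all others, and in STMN1 both A431 NEDD8i libraries, at 159.8 and 162 CPM, stood below all others. Groups of 2 libraries are too small for a test of single outlying libraries.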

How the results depend on the processing

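MAP2 kept its direction under every alternative run, with a log2 change of 4.59 to 4.94 in CAL27 and 4.90 to 5.04 in A431. Its CAL27 change minus its A431 change ran from -0.38 to -0.03. The counts of called members stayed within 1.5 times their value with 1 exception: the count called lower in CAL27 was 1 to 2 when single libraries were left out. For the 124 log2 changes and differences followed, 1793 alternatives kept direction and side of the threshold, 9 moved past it, 25 fell short of it and 7 changed direction. The values concerned were called neither with all 8 libraries nor under the alternative that changed their direction. When single libraries were left out, the MAPT response difference ran from -0.999 to 1.14, and, CAL27 against A431 under DMSO, MAPT ran from -0.295 to 0.89 and MAP1S from -0.0589 to 0.26. MAP7 in that last comparison was 0.0050 with a filter of 1 CPM. The cause was not tested. MAP7D1 under DMSO, CAL27 against A431, moved past the threshold with DESeq2 size factors (adjusted p = 0.0392), a filter of 1 CPM (0.00802), DESeq2 itself (0.0318) and halved counts (0.0343), likewise with no test of the cause. Same-numbered libraries showed no shared deviation, with correlations from -0.03 to 0.02, so the numbers were not taken as pairs. With a replicate block within each line the change of MAP2 was 4.72 in CAL27 and 4.96 in A431, and members called higher and lower stayed at 4 and 1 in CAL27 and 4 and 2 in A431. Low counts limit MAPT and TUBB3, and MAP1A in CAL27. For TUBB3 the reads shared with an overlapping gene were also dropped, a limit apart from depth. The floor of 3 counts covers counting error only, and only in part, since mates were counted separately.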

Other observations

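Markers of 2 further cell types were measured. Of 11 mesenchymal markers, 9 were tested. In CAL27 0 were called higher with NEDD8i and 4 lower (CDH2, COL1A1, COL1A2 and SNAI2), with a summed level of 255 to 283 CPM with NEDD8i and 289.7 to 298 CPM with DMSO. In A431 1 was called higher (FN1, fibronectin) and 4 lower (COL1A1, SNAI2, TWIST1 and VIM), with 99.2 to 105 CPM with NEDD8i and 112 to 118 CPM with DMSO. TWIST1 and VIM were near the limit of detection in A431, at 0 CPM with NEDD8i and 0.221 and 0.203 CPM with DMSO. Over all genes tested, 23.2% were called higher and 26.4% lower in CAL27, and 22.5% and 21.1% in A431. Of 7 melanocyte markers, 2 were tested. MITF, a transcription factor of melanocytes also found in other cells, was called higher in CAL27, with 12.03 CPM with NEDD8i and 3.21 CPM with DMSO, and lower in A431, with 22.6 CPM with NEDD8i and 51.6 CPM with DMSO. The call of CDH2 in CAL27 (-0.33, edgeR adjusted p = 0.0272) was lost with DESeq2 (adjusted p = 0.0901) and without any 1 of the CAL27 libraries (0.0732 to 0.248 in edgeR), and that of COL1A1 in A431 (-0.53, edgeR adjusted p = 0.0298) without A431 DMSO replicate 2 (0.103) and without A431 NEDD8i replicate 2 (0.179). The MITF responses differed between lines by 3.09 on the log2 scale (edgeR adjusted p = 2.67e-10).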
